A study of Homo sapiens with 4 samples.

Results

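The SOX9 locus was taken as the 2.5 Mb of chromosome 17 between 68.2 and 70.7 Mb in GRCh37 (hg19), which run from just past KCNJ2, across the gene desert upstream of SOX9, to the long noncoding RNA gene LINC00511 downstream of it. Chromatin loops were counted as members when at least 1 of their anchors lay in this window, and contact domains when they overlapped it. No loop crossed the edge of the window with an anchor. This gave 129 of the 77275 loops and 7 of the 7418 domains that the 4 libraries list together. The 129 calls fell on 69 of the 34743 loop sites, where a site joins calls of different libraries whose anchor midpoints lay within 20 kb of each other at both ends. The window holds 2 protein-coding genes, SOX9 at chr17:70117161-70122557 on the plus strand and part of the zinc transporter gene SLC39A11, together with 15 long noncoding RNA genes. No protein-coding gene lies in the 1941 kb between KCNJ2, a potassium channel gene, and SOX9, nor in the 520 kb between SOX9 and SLC39A11.

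The loops were called from Hi-C, which ligates and sequences DNA ends that lie close to each other in the nucleus, in MDA-MB-231, a triple negative breast cancer cell line with no introduced genotype. The cells had been exposed for 48 h to DMSO (vehicle) or to 75 nM THZ1, a covalent inhibitor of CDK7, the kinase that activates other CDKs and acts on RNA polymerase II in transcription initiation. Each condition had 2 libraries, which the submitters call technical replicates, so every p-value below measures the spread between libraries that may come from 1 culture. The comparison asks how the loops around SOX9 differ between vehicle and THZ1 cells. No expression was measured in these samples.

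SOX9 is an HMG-box transcription factor needed for cartilage formation and testis development, and it also marks progenitor cells in several epithelia, the mammary gland among them. Its transcription depends on enhancers scattered through the flanking desert, some of them far from the promoter, and chromosome breaks that separate these from the gene cause skeletal and craniofacial malformations. A boundary between the KCNJ2 and SOX9 domains keeps each gene apart from the other's enhancers. Loops in Hi-C maps mostly join sites bound by CTCF, where cohesin stops extruding DNA. They also join promoters and enhancers.

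HiCCUPS, the loop caller, reports for each loop the contacts observed at its peak pixel and the contacts expected from the pixels around it. Here the ratio of the observed contacts to the expectation from a donut around the pixel is called the contact enrichment of a loop, and loop size runs from the start of one anchor to the start of the other. Anchors were 5, 10 or 25 kb wide, and since enrichment depends on this width, it is given where values are set side by side. Over the whole genome the lists held 20768 and 24219 loops in vehicle replicates 1 and 2 and 17222 and 15066 in THZ1 replicates 1 and 2, with 622305, 762701, 631600 and 551436 contacts summed over them. At the locus these sums were 832, 1289, 1101 and 872 contacts. They depend on how many loops were called and are not library sizes.

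The reference sequence of the loop anchors was searched on both strands for the core of the motif that CTCF is known to bind, spelled as CCA, any 2 bases, AG, any 2 bases and GGC. Anchors of the 129 loops within the window were grouped when their midpoints lay within 20 kb, each group standing for 1 anchor and represented by its narrowest and most frequent call. Of the 36 anchors so defined, 13 held a match: 7 of the 23 anchors of 5 kb, 4 of the 10 of 10 kb and 2 of the 3 of 25 kb. Over all loop anchors of the genome the shares with a match were 25.5% at 5 kb, 37.7% at 10 kb and 58.9% at 25 kb, and over all stretches of these widths on chromosome 17 they were 16.7%, 29.7% and 56.4%. The matches below were chosen because they lie in the upstream anchors that loop to SOX9, or in the LINC00511 anchor that closes the SOX9 side of the region. Each is given 5′ to 3′ on the strand of the match in the GRCh37 reference, with the matched letters in capitals.
1354 kb upstream, chr17:68763427-68763456, plus strand: tacaggattCCAACAGGGGGCagtgaaatt
1037 kb upstream, chr17:69080549-69080578, minus strand: ctttggcaaCCACCAGGGGGCagggaaagg
1036 kb upstream, chr17:69081560-69081589, plus strand: ctctggcaaCCACAAGGGGGCagggaaggg
1003 kb upstream, intron of CASC17, chr17:69114383-69114412, plus strand: tatttttttCCACCAGGTGGCaatgccctc
999 kb upstream, intron of CASC17, chr17:69118364-69118393, plus strand: tgagacatgCCATGAGAAGGCtaaaaaaat
883 kb upstream, chr17:69234113-69234142, plus strand: tatcaatttCCAGCAGATGGCatctcacac
421 kb downstream, intron of LINC00511, chr17:70538508-70538537, plus strand: gccccctgcCCAGGAGCTGGCtttctggaa

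The anchor whose midpoint lies 1035 kb upstream held a match on either strand, and both also fit a stricter spelling, CCAC, any base, AGG, any base and GGC. So does the match 1003 kb upstream, in an intron of the long noncoding RNA gene CASC17. Only these 2 of the 36 anchors held the stricter spelling, which occurred in 4.78% of all 5 kb and 10.7% of all 25 kb loop anchors, and in 1.67% and 7.99% of such stretches of chromosome 17. The 5 kb anchor over the SOX9 promoter, chr17:70115001-70120000, held no match, and neither did the LINC00511 anchors that start at 70290001, 70335001, 70385001 and 70415001. A match is a run of letters and not a measured binding site.

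**Figure D1:**
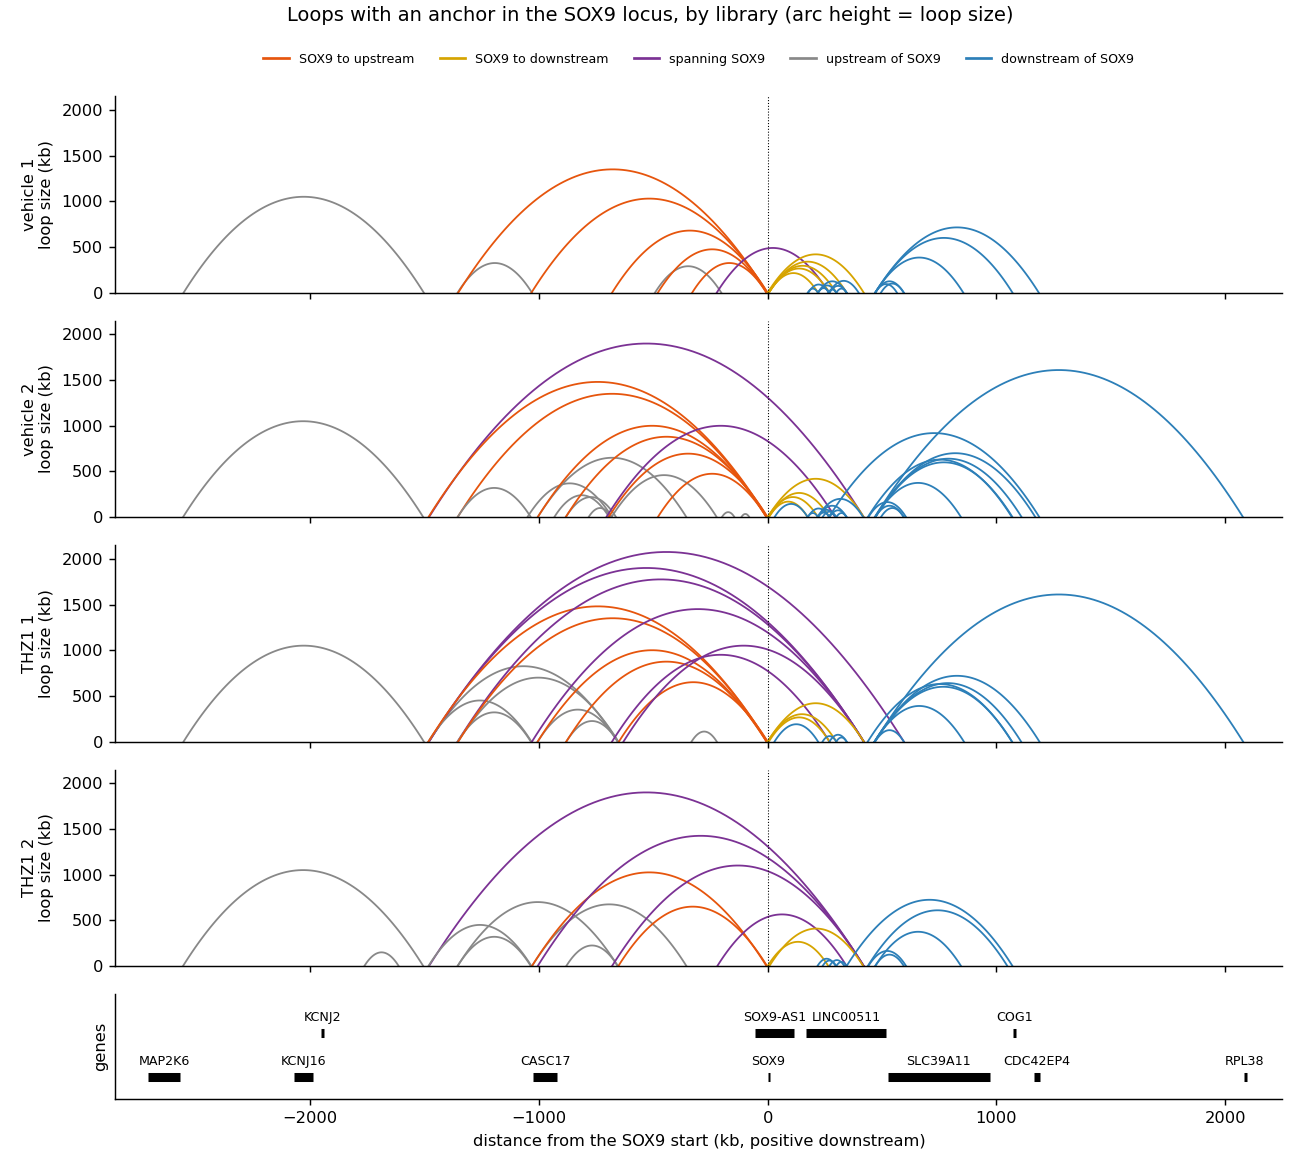
Loops of the SOX9 locus in each library, drawn as arcs between both anchor midpoints. The horizontal axis is the distance from the SOX9 start in kb (positive downstream), the height of an arc is the loop size in kb, arc colors mark loops anchored at SOX9, loops spanning it and others, and the lowest panel shows genes. The cluster of small arcs downstream of SOX9 is densest in the vehicle panels, and the arcs that pass over SOX9 number 1 and 2 in vehicle against 6 and 4 in THZ1.

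SOX9 was the busiest anchor of the window in all 4 lists together. An anchor on the gene body or within 10 kb of it belonged to 10 loops in vehicle replicate 1 and 10 in vehicle replicate 2, against 8 and 4 in THZ1 replicates 1 and 2. Both vehicle libraries were above both THZ1 libraries, with 10.0 ± 0 loops in vehicle and 6.00 ± 2.83 in THZ1 (SD, n = 2 libraries), a log2 ratio of -0.74. The exact two-sided permutation test gave p = 0.33, the smallest that 2 libraries against 2 can give. The same holds for every permutation test below, so none of them can pass a threshold of 0.05. Per 10000 loops of the library the SOX9 loops came to 4.82, 4.13, 4.65 and 2.66, where the conditions overlapped (exact permutation p = 0.67), and THZ1 replicate 2 alone lay below the rest. SOX9 held more loops than 98.3% of the 20090 protein-coding genes of the annotation, with 32 over the 4 lists against a median of 8 among the 16077 genes that had any. By library the share of genes with fewer loops was 98.8%, 98.1% and 98.3% in vehicle 1, vehicle 2 and THZ1 1, and 88.0% in THZ1 2. The genes whose 4 counts lay closest to those of SOX9, by Euclidean distance over the 4 libraries, were EGLN3, a prolyl hydroxylase gene on chromosome 14 with 9, 10, 8 and 4 loops, and an unnamed gene on chromosome 21 with 10, 10, 8 and 5. The zinc transporter gene SLC39A10 on chromosome 2 followed with 10, 11, 8 and 5.

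The loops of SOX9 ran in both directions. Downstream, 5, 4, 3 and 2 loops in vehicle 1, vehicle 2, THZ1 1 and THZ1 2 reached partners in LINC00511, a long noncoding RNA gene whose RNA is raised in breast cancers. Upstream, 5, 6, 5 and 2 loops reached into the desert. The farthest downstream partner lay at 420, 420, 420 and 418 kb in the 4 libraries, so the downstream reach was the same within 1 anchor. The nearest downstream partner lay at 220 and 175 kb in vehicle and at 270 and 265 kb in THZ1, and the nearest upstream partner at 330 and 480 kb in vehicle and 650 and 652 kb in THZ1. On either side the nearest partners called in THZ1 were farther from SOX9 than those in vehicle, with no overlap between conditions (exact permutation p = 0.33 for both). A nearest partner depends on how many loops were called. The median distance overlapped on both sides, at 680 and 943 kb upstream in vehicle against 1005 and 841 kb in THZ1. Downstream it was 300 and 245 kb against 300 and 342 kb. Over the whole genome the median loop size was 140 kb in both vehicle and 200 kb in both THZ1 libraries.

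With calls joined at 20 kb, only 2 of the 15 loop sites of SOX9 were called in every library, and both were downstream. The first joined chr17:70115001-70120000 to an intron of LINC00511 at chr17:70535001-70540000, the anchor with the match printed above for 421 kb downstream. Its contact enrichment was 9.14 and 9.85 in vehicle and 10.7 in THZ1 replicate 1, all with these 5 kb anchors, and 5.05 in THZ1 replicate 2, whose call of 410 kb had 10 kb anchors. Averaged over libraries this was the highest enrichment among the locus sites called in all 4. The second, of 265 kb, joined SOX9 to an intron of LINC00511 at chr17:70385001-70390000, or in THZ1 replicate 2 to the neighboring anchor at chr17:70380001-70385000, which carries an exon, with 26, 33, 30 and 21 observed contacts over expectations of 4.29, 4.96, 5.35 and 3.81. With 5 kb anchors throughout, its enrichment was 6.07 and 6.65 in vehicle and 5.61 and 5.51 in THZ1, lower in both THZ1 libraries. Its observed contacts overlapped between conditions. The median enrichment over the whole genome was lower in THZ1 too, at 4.10 and 4.04 against 4.60 in both vehicle libraries. This site was not in the fit of loop strength below, since its anchors were not identical in every list.

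The other downstream partners of SOX9 were called mainly in vehicle. The loop to chr17:70335001-70340000, which carries exons of LINC00511 and of the long noncoding RNA gene LINC02003, was called in each vehicle library, at enrichments of 5.63 and 6.02, but not in THZ1. THZ1 replicate 1 listed a loop to this partner from chr17:70145001-70150000 instead, 30 kb downstream of the SOX9 start, at 4.52. A loop 300 kb downstream was called in vehicle replicate 1 (5.02) and THZ1 replicate 1 (5.69). A loop of 340 kb was called in vehicle replicate 1 alone (8.08), and a loop of 170 kb in vehicle replicate 2 alone (4.32).

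None of the 9 upstream sites of SOX9, as joined at 20 kb, was called in all 4 libraries. The most often called joined SOX9 to the anchor 1355 kb upstream that starts at 68760001. This anchor overlaps no protein-coding gene and no named long noncoding RNA gene. The enrichment of the site was 8.85 with 10 kb and 4.42 with 25 kb anchors in vehicle and 7.17 with 10 kb anchors in THZ1 replicate 1. The farthest, of 1480 kb, reached chr17:68630001-68640000, at the boundary of the KCNJ2 and SOX9 sides. It was called in vehicle replicate 2 (11.1) and THZ1 replicate 1 (9.63), both with 10 kb anchors. A site of 1000 kb was called with 25 kb anchors in vehicle replicate 2, at 3.44, and in THZ1 replicate 1, at 3.81. Sites of 1030 and 880 kb were called with 10 kb anchors in vehicle, at 7.32 and 6.13 in 1 library each, and with 25 kb anchors in THZ1, at 2.83 and 2.95, so these values cannot be set against each other. The sites of 1030 and 1000 kb lay next to each other. The former was called in vehicle replicate 1 and THZ1 replicate 2, the latter in vehicle replicate 2 and THZ1 replicate 1. Each library thus listed a SOX9 loop from the stretch chr17:69075001-69125000, and the split between these sites rests on the matching distance. The site of 325 kb was called in vehicle replicate 1 alone (2.59, 25 kb anchors).

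In the middle of the desert the partners called in vehicle and in THZ1 lay close to each other but were not the same. At 1 site listed in each vehicle library but not in THZ1, vehicle replicate 1 had a loop of 680 kb from chr17:69435001-69440000 to SOX9, at 7.46, and vehicle replicate 2 a loop of 695 kb from chr17:69420001-69425000, at 7.01, both with 5 kb anchors. The vehicle libraries also shared a loop of 475 kb, at 2.63 and 2.4 with 25 kb anchors, that THZ1 lacked. Each THZ1 library but no vehicle library listed a loop of 650 kb, from chr17:69465001-69470000 in THZ1 replicate 1, at 8.65, and from the 10 kb anchor that holds it in THZ1 replicate 2, at 5.07. The partners in vehicle lie 30 and 45 kb from the one in THZ1 replicate 1, and with sites joined at 50 kb in place of 20 kb they count as 1 site. None of these anchors overlaps a protein-coding gene or a named long noncoding RNA gene.

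Loops with both anchors on LINC00511 were fewer in THZ1. They numbered 9 and 10 in vehicle and 3 and 4 in THZ1, or 9.5 ± 0.707 against 3.5 ± 0.707 (SD, n = 2 libraries), 2.71 times as many in vehicle. The conditions did not overlap (exact permutation p = 0.33). Per 10000 loops of the library the values were 4.33 and 4.13 in vehicle and 1.74 and 2.66 in THZ1, again with no overlap. Most were small: 7 and 7 in vehicle and 3 and 4 in THZ1 were of 90 kb or less, the subloop size named in the study. That is 2.0 times as many in vehicle, and loops of this size over the whole genome numbered 7740 and 8910 in vehicle and 4513 and 3846 in THZ1, 1.99 times as many, near the ratio on LINC00511. Among loops with 5 kb anchors alone there were 7.5 ± 0.707 in vehicle and 3.0 ± 0 in THZ1. This group was singled out after its values were seen.

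The anchors on LINC00511 differed in how many loops ended there. The anchor nearest to SOX9, in an intron at chr17:70290001-70295000, ended 2 and 4 loops in vehicle and 0 and 0 in THZ1. The anchor 220 kb downstream, at chr17:70335001-70340000, ended 5 and 6 in vehicle and 1 and 1 in THZ1. Those 270 and 300 kb downstream ended 7 and 6 and 4 and 5 loops in vehicle, against 3 and 2 and 3 and 3 in THZ1. The vehicle lists are the longer ones over the whole genome too. Of the 10 loop sites with an end on LINC00511 within 230 kb of SOX9, 8 were called in vehicle alone, 5 of these in both vehicle libraries, 1 was called in both conditions and 1 in THZ1 alone, against 38.5%, 10.0%, 46.3% and 15.2% of all sites of the genome. These anchors too were picked for their values, so the shares describe them only. By contrast, the anchor 420 kb downstream, grouped around chr17:70535001-70540000, ended 1 and 3 loops in vehicle and 5 and 4 in THZ1. Most of those in THZ1 were calls with 25 kb anchors at chr17:70525001-70550000. Among narrower anchors THZ1 ended no more loops there than vehicle, so this difference depends on anchor width. The anchor 345 kb downstream ended 4 and 3 in vehicle and 2 and 4 in THZ1, which overlap.

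**Figure D2:**
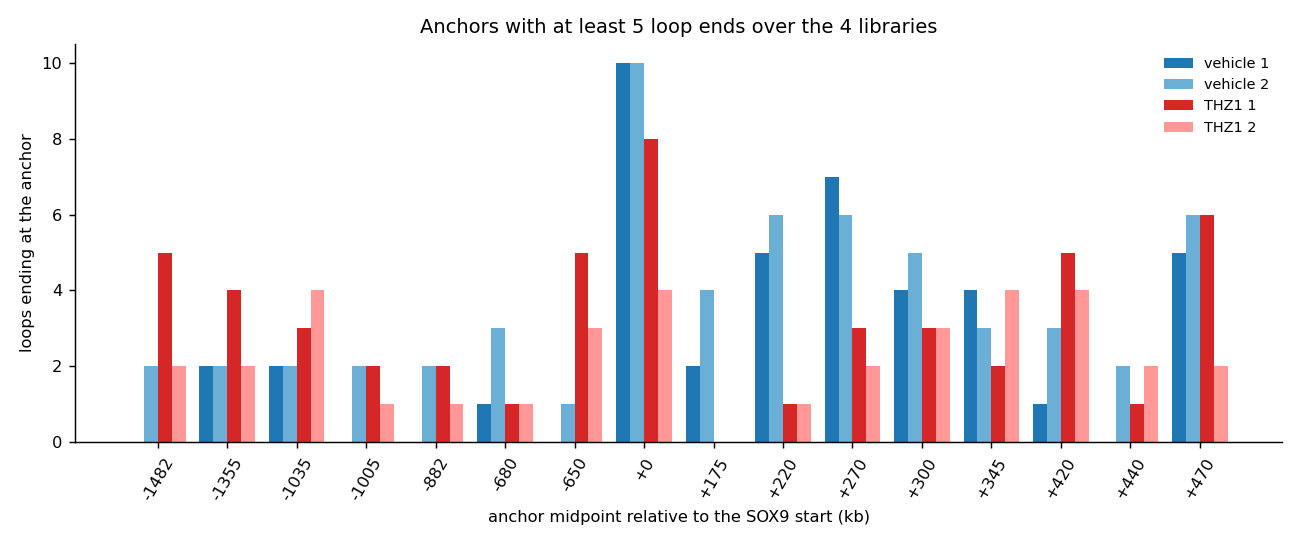
Number of loops ending at each anchor of the window that had at least 5 loop ends over the 4 libraries, against the position of the anchor relative to the SOX9 start in kb. Each bar is 1 library, 2 vehicle and 2 THZ1 at each anchor. The LINC00511 anchors nearest to SOX9, up to +220 kb, have 2 to 6 loop ends in vehicle and 0 or 1 in THZ1. The anchors at -1482, -650 and +420 kb have their highest counts in THZ1, while that at -680 kb has its highest in vehicle replicate 2. Ends of calls with 25 kb anchors are counted together with those of narrower ones.

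Of the 11 loop sites with both anchors on LINC00511, 7 were called in vehicle alone (38.5% of all sites of the genome), 5 of them in each vehicle library (10.0%), 2 were called in all 4 libraries (23.9%) and 0 in THZ1 alone (15.2%). The 5 ranged from 35 to 125 kb. The strongest was the 125 kb loop from chr17:70335001-70340000 to chr17:70460001-70465000, at 4.88 and 6.31, and the next the 50 kb loop from chr17:70335001-70340000 to chr17:70385001-70390000, at 5.16 and 5.05. The loops on LINC00511 called in THZ1 had a median enrichment of 3.81 and 3.41, against 4.32 and 4.52 in vehicle. Over the whole genome the medians were 4.10 and 4.04 against 4.60 in both vehicle libraries. None on LINC00511 exceeded 3.88 in THZ1, whereas the highest in vehicle were 5.90 and 6.31. A highest value depends on the number of loops, here 3 and 4 against 9 and 10. Those with 10 kb anchors numbered 2 and 2 in vehicle and 0 and 1 in THZ1, the rest having 5 kb anchors. A loop of 75 kb from chr17:70385001-70390000 to chr17:70460001-70465000 had 4.43 and 4.80 in vehicle and 3.81 in THZ1 replicate 1, and THZ1 replicate 2 called it at 65 kb with 3.88, all with 5 kb anchors.

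Loop strength was tested on the loops with identical anchors in all 4 lists, 2617 genome-wide, of which 2 are at the locus. The fit was edgeR's quasi-likelihood test on the observed contacts with the donut expectation as offset. Genome-wide it called 721 loops lower in THZ1, or 27.6%, and 1 higher (0.0382%), with a median log2 change of -0.41. The 45 kb loop on exons of LINC00511 from chr17:70415001-70420000 to chr17:70460001-70465000 had 59 and 72 observed contacts in vehicle and 33 and 46 in THZ1, over expectations of 10.0 and 13.4 in vehicle and 11.2 and 13.4 in THZ1. Its enrichment was 5.90 and 5.39 in vehicle and 2.95 and 3.44 in THZ1, with no overlap. It fell by 0.80 on the log2 scale (SE 0.19, edgeR adjusted p = 0.00681), against the 27.6% of loops that passed in this direction.

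At this loop the observed contacts themselves were lower in THZ1. Their unnormalized log2 change was -0.74 and that of the expectation 0.08. Over all tested loops the medians were -0.01 for the observed contacts and 0.40 for the expectation. With the observed contacts normalized by TMM and no expectation, 108 loops fell (4.13%) and 67 rose (2.56%) genome-wide, and the 45 kb loop was among those that fell, with a log2 change of -0.71 (edgeR adjusted p = 0.0163). The call did not hold with DESeq2 (adjusted p = 0.116), which called 16 loops in all. With 1 of the 4 libraries left out the log2 change was -0.71 to -0.93, and the loop was not called in any of these fits. They take the spread of the lone library from the other condition, but the fit without vehicle replicate 1 did call other loops.

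The other loop tested joined an exon of LINC00511 at chr17:70585001-70590000 to an intron of SLC39A11 at chr17:70710001-70715000, 125 kb apart. It had 35 and 61 observed contacts in vehicle and 45 and 46 in THZ1, and enrichments of 4.98 and 6.42 against 4.36 and 4.33. The vehicle values were the higher, but the loop did not pass the test (log2 change -0.42, SE 0.20, edgeR adjusted p = 0.119), and its value lay near the median of all tested loops. The observed contacts overlapped between conditions.

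The anchor of that loop, 470 kb downstream of SOX9, was the second busiest of the window with 5, 6, 6 and 2 loop ends, and its loops ran away from SOX9. A site of 375 to 390 kb from it to an intron of SLC39A11 was called in all 4 libraries, at anchor widths from 5 to 25 kb. The loops below were chosen after their values were seen. The highest enrichment of the locus, 18.3 in vehicle replicate 2, belonged to a loop of 1610 kb that ended on RPL38, a gene of the large ribosomal subunit. THZ1 replicate 1 listed this loop at 9.51, both with 10 kb anchors. These ratios rest on few contacts, 14 over an expectation of 0.767 in vehicle replicate 2 and 16 over 1.68 in THZ1 replicate 1. From this anchor or the one 440 kb downstream, loops of 600 to 720 kb ended on or near COG1, which encodes part of a Golgi tethering complex, and CDC42EP4, which encodes an effector of the small GTPase CDC42. The site that ended on CDC42EP4 had 8.40 and 9.54 with 5 kb anchors in vehicle, at 715 and 700 kb, and 4.66 with 10 kb anchors in THZ1 replicate 1, at 720 kb, which are unlike widths.

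Loops that passed over SOX9 without an anchor on it were more numerous in THZ1. They numbered 1 and 2 in vehicle and 6 and 4 in THZ1, or 1.5 ± 0.707 against 5.0 ± 1.41 (SD, n = 2 libraries), with no overlap (log2 ratio 1.74, exact permutation p = 0.33). Per 10000 loops of the library they came to 0.48 and 0.83 in vehicle and 3.5 and 2.7 in THZ1. Of their 11 sites, 8 were called in THZ1 alone and 2 in vehicle alone, where the genome had 15.2% and 38.5%. These were mostly wide-anchor calls, since loops with 25 kb anchors made up 0 and 2 of those in vehicle and 6 and 3 of those in THZ1. This group too was singled out after its values were seen. Its smallest loop was of 490 kb. Over the whole genome, loops of 500 kb or more made up 12.1% and 12.6% in vehicle and 19.4% and 19.5% in THZ1.

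As joined at 20 kb, the single spanning site called in more than 1 library linked chr17:68625001-68650000 to LINC00511 at chr17:70525001-70550000, 1900 kb away. Its upstream anchor lies at the boundary of the KCNJ2 and SOX9 sides. This site was called in vehicle replicate 2 at 6.67 and in THZ1 at 6.44 and 6.77, all with 25 kb anchors. The largest loop of the locus, of 2075 kb, ran from the same upstream anchor to an exon of SLC39A11 and was called in THZ1 replicate 1 alone, at 5.11. The downstream anchor around 420 kb ended 6 of the 11 spanning sites. Among them were a site of 1450 kb in THZ1 replicate 1 (3.59) and a site of 1425 kb in THZ1 replicate 2 (3.93). Their upstream 25 kb anchors adjoin, so their split rests on the matching distance.

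Loops that lay wholly upstream of SOX9 numbered 3 and 10 in vehicle and 8 and 7 in THZ1, so the vehicle libraries enclosed those of THZ1 (exact permutation p = 1). Of these, 2 sites were called in all 4 libraries, a loop on the KCNJ2 side that is described below and a site that ran for 320 kb from the anchor 1355 kb upstream of SOX9 to the anchor 1035 kb upstream, both with a match printed above. With 5 kb anchors it had 8.47 in vehicle replicate 2 and 5.81 and 7.18 in THZ1, and with 25 kb anchors 2.57 in vehicle replicate 1. Each THZ1 library but no vehicle library listed a loop of 450 kb from chr17:68630001-68640000 to chr17:69080001-69090000, at 4.81 and 5.11, and a loop of 700 kb from the anchor 1355 kb upstream to the one 650 kb upstream, at 4.92 with 10 kb and 2.54 with 25 kb anchors. The anchor that starts at 68630001, at the boundary of the KCNJ2 and SOX9 sides, ended 0 and 2 loops in vehicle and 5 and 2 in THZ1. The anchor 650 kb upstream ended 0 and 1 in vehicle against 5 and 3 in THZ1. Its neighbors 680 and 695 kb upstream ended 1 and 3 and 0 and 3 in vehicle, against 1 and 1 and 0 and 0 in THZ1. The contrast at 650 kb thus depends on the 20 kb grouping of anchors, and most of its THZ1 ends were calls with 25 kb anchors.

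**Figure D3:**
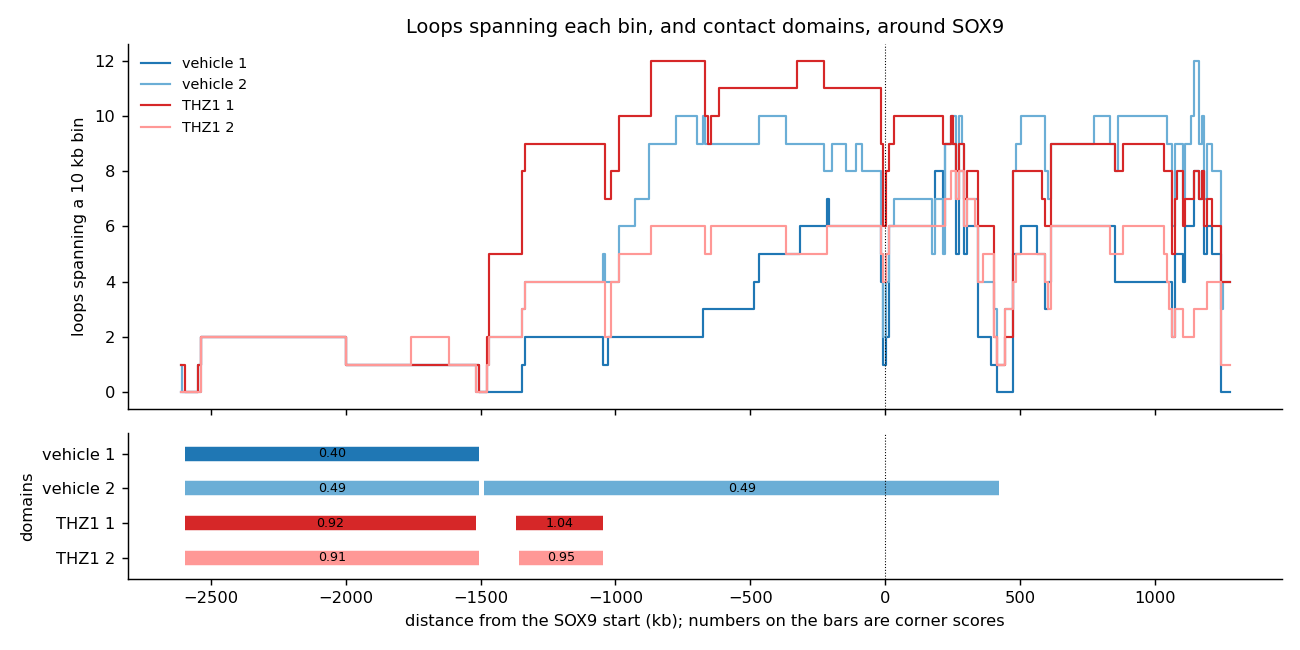
Upper panel, the number of loops of chromosome 17 in each library whose anchors lie on either side of each 10 kb bin. Lower panel, the contact domains of each library as bars with their corner scores. Both are drawn against the distance from the SOX9 start in kb. At SOX9 the spanning loops number 1 and 2 in vehicle and 6 and 4 in THZ1, and at the boundary between the anchors 1502 and 1482 kb upstream the count is 0 in every library.

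No loop of any library passed over the boundary between the KCNJ2 and SOX9 sides. Of the 250 bins of 10 kb in the window, only 3, next to each other from 68610001 to 68640000, were spanned by no loop in any library. On the KCNJ2 side a loop of 1050 kb from chr17:67560001-67570000 to chr17:68610001-68620000 was called in all 4 libraries, at 5.91 and 4.28 with 10 kb anchors in vehicle replicate 1 and THZ1 replicate 1, and at 3.41 and 2.85 with 25 kb anchors in vehicle replicate 2 and THZ1 replicate 2. Arrowhead, which calls contact domains on a 10 kb grid, listed a matching domain from 67520001 in all 4. Its end lay at 68610000 in 3 libraries and at 68600000 in THZ1 replicate 1. The corner score of this domain was 0.398 and 0.490 in vehicle and 0.921 and 0.911 in THZ1, with no overlap. Only 2.42% and 5.22% of the domains in the vehicle lists and 19.1% and 18.7% of those in the THZ1 lists scored lower, so it was among the weaker domains of every list.

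On the SOX9 side the domain calls differed between libraries. A domain of 1910 kb from 68630001 to 70540000, which holds SOX9 and has the 1900 kb loop at its corner, was called in vehicle replicate 2 alone, at a score of 0.489. Both THZ1 libraries listed a domain of 320 or 310 kb between the anchors 1355 and 1035 kb upstream, at scores of 1.04 and 0.947, and neither vehicle library listed it, although the loop between those anchors was called in all 4. The window held 1 and 2 domains in vehicle and 2 and 2 in THZ1 (exact permutation p = 1), while the whole lists held 1198 and 1398 in vehicle and 2477 and 2345 in THZ1.

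In total the locus had 29 and 43 loops in vehicle and 33 and 24 in THZ1, or 36.0 ± 9.90 against 28.5 ± 6.36 (SD, n = 2 libraries), and the libraries overlapped (log2 ratio -0.34, exact permutation p = 0.67). As a share of all loops of the library this was 0.140% and 0.178% in vehicle and 0.192% and 0.159% in THZ1, with 95% Wilson intervals from 0.0972 to 0.200%, 0.132 to 0.239%, 0.136 to 0.269% and 0.107 to 0.237%. The shares overlapped (exact permutation p = 0.67). The intervals cover counting error only.

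The loops of the locus were larger than those of the genome in every library, and larger in THZ1 than in vehicle. Their median size was 290 and 265 kb in vehicle and 640 and 430 kb in THZ1 (log2 ratio of the means 0.95, exact permutation p = 0.33), against 140 kb in both vehicle and 200 kb in both THZ1 libraries over the whole genome. Loops of 90 kb or less made up 24.1% and 20.9% of the locus loops in vehicle and 9.09% and 16.7% in THZ1, with Wilson intervals of 12.2 to 42.1%, 11.4 to 35.2%, 3.14 to 23.6% and 6.68 to 35.9%. The conditions did not overlap but the intervals did. Genome-wide the shares were 37.3% and 36.8% in vehicle and 26.2% and 25.5% in THZ1. The locus lay below the genome by 14.5 ± 1.93 percentage points in vehicle and by 13.0 ± 5.84 in THZ1 (SD, n = 2 libraries, exact permutation p = 1 for the difference of this gap between conditions). The locus thus lay below the genome in all 4 libraries, and the gap overlapped between vehicle and THZ1.

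Loops of 500 kb or more were 20.7% and 34.9% of the locus loops in vehicle and 57.6% and 45.8% in THZ1. Genome-wide they were 12.1% and 12.6% in vehicle and 19.4% and 19.5% in THZ1. The excess of the locus over the genome was 15.5 ± 9.72 percentage points in vehicle and 32.2 ± 8.36 in THZ1 (SD, n = 2 libraries), with no overlap (exact permutation p = 0.33). The widths of the anchors differed as well: 25 kb anchors belonged to 3 and 8 locus loops in vehicle and 11 and 10 in THZ1, 10 kb anchors to 7 and 11 against 12 and 6, and 5 kb anchors to 19 and 24 against 10 and 8. Among locus loops with 5 kb anchors alone the median size was 130 ± 7.07 kb in vehicle and 186 ± 58.3 kb in THZ1 (SD, n = 2 libraries). Among those with 10 kb anchors it was 475 ± 21.2 kb and 550 ± 170 kb. Those with 25 kb anchors had medians of 663 ± 477 kb and 938 ± 88.4 kb, and in both of these classes the conditions overlapped. The part of anchor width in the size difference was not tested.

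**Figure D4:**
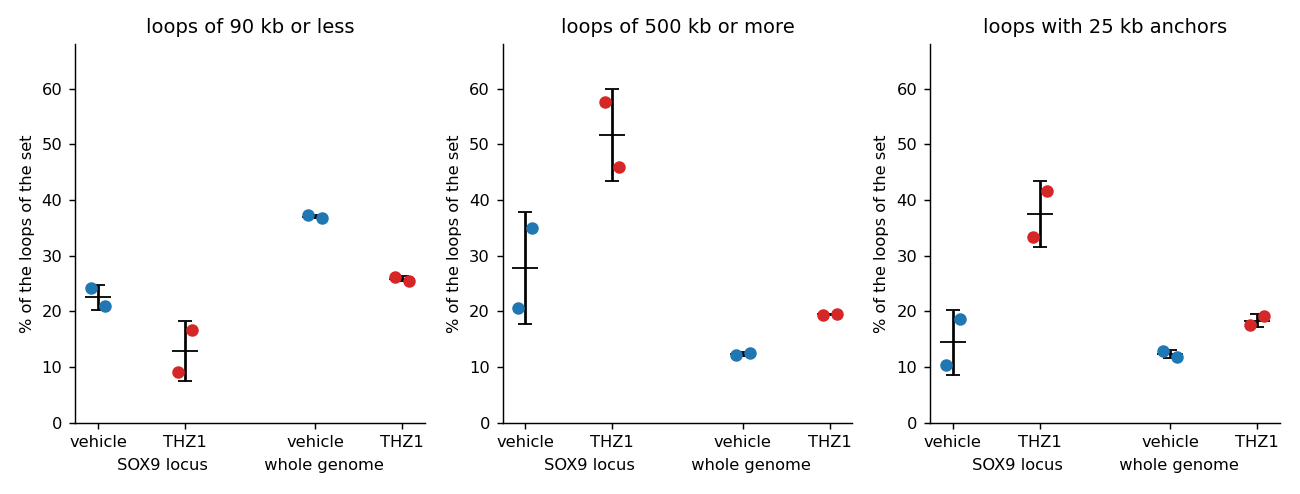
Loop sizes at the SOX9 locus and over the whole genome. Each point is 1 library, the horizontal lines are the means of 2 libraries with bars of 1 SD, and the vertical axes give the percent of the locus loops or of all loops in the class named above the panel. Loops of 90 kb or less were 24.1% and 20.9% of the locus loops in vehicle and 9.09% and 16.7% in THZ1, while the genome-wide shares were higher in every library.

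The median contact enrichment of the locus loops was 4.98 and 4.80 in vehicle and 4.48 and 3.72 in THZ1, a difference of -0.26 between the means of the log2 values, with no overlap (exact permutation p = 0.33). Over the whole genome the medians were 4.60 in both vehicle libraries and 4.10 and 4.04 in THZ1. Among loops with 10 kb anchors alone the difference at the locus had the opposite sign, 0.24, so the direction was not shared by all widths. The median observed count was 23 and 24 contacts in vehicle and 29 and 30.5 in THZ1, and the median expectation 5.2 and 6.26 in vehicle and 5.84 and 8.16 in THZ1. The loops called in THZ1 thus had more observed contacts at the median, over a background that overlapped between conditions. They also had 25 kb anchors more often, in 33.3% and 41.7% of loops against 10.3% and 18.6% in vehicle. The part of anchor width in the contact counts was not tested.

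Of the 69 sites, 8 were called in all 4 libraries, or 11.6%, where the genome had 23.9%. Sites that each vehicle library but no THZ1 library listed numbered 9 (13.0%, genome 10.0%), and sites that each THZ1 library but no vehicle library listed numbered 3 (4.35%, genome 2.42%). Another 33 sites, or 47.8%, were called in 1 library alone (genome 41.3%). By condition, 24 sites (34.8%, genome 46.3%) were called in at least 1 library of each, 27 (39.1%, genome 38.5%) in vehicle alone and 18 (26.1%, genome 15.2%) in THZ1 alone. The share of sites in all 4 libraries was below that of the genome, and the shares specific to vehicle were near it. Among all 69 sites, 41 had an anchor on LINC00511 and 15 an anchor on SOX9. Of the 9 vehicle sites, 7 had an anchor on LINC00511 and 3 an anchor on SOX9. Of the 3 THZ1 sites none had an anchor on LINC00511 and 1 had an anchor on SOX9. With sites joined at 50 kb in place of 20 kb, the vehicle sites numbered 4 and the THZ1 sites 4 of 49, so these counts rest on the matching distance.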

How the data were processed

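Arima-HiC libraries of MDA-MB-231 cells (vehicle or 75 nM THZ1, 48 h, 2 libraries each) were processed by the authors with Juicer 1.6 on hg19. The lists name juicer_tools 1.19.02. For each loop the authors deposited raw counts of observed contacts, an expected signal in contacts for 4 neighborhoods of the pixel, and FDR values (q-values, a kind of p-value). For each domain they deposited Arrowhead's corner score. The authors' tables of unique loops hold their own comparison and were not used here. Each library's depth is given as contacts at called loops, and read totals were not used here. The labels and the methods give different formaldehyde concentrations.

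Lists were read with Python 3.11.15, pandas 2.3.3, numpy 2.4.6 and scipy 1.17.1, and figures drawn with matplotlib 3.10.9. A loop was a member when an anchor lay wholly within the window. Sites were complete-linkage clusters of calls within 20 kb at both anchors. Each site is described by 1 representative call, and values per library are those of its own call. Genes are those of GENCODE 44 lifted to GRCh37, and every one of 59826 distinct anchors lay within its chromosome ends. Library values were compared by exact two-sided permutation over the 6 splits of 4 libraries. Strength was tested on 2617 of 2624 loops with identical anchors (7 with an expectation of 0 were left out) with edgeR 4.0.16 in R 4.3.3 and Benjamini-Hochberg adjustment at 0.05, and with DESeq2 1.42.0 as an alternative. The fit was tested on simulated data. Replicate numbers did not pair the libraries.

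The named genes are those at the anchors of loops that end on SOX9, are called in all 4 libraries, or are called in both libraries of 1 condition and neither of the other. RPL38, COG1 and CDC42EP4 fall outside this rule and were chosen after their values were seen. The members and lists were chosen with earlier results of these data known.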

Additional observations from a re-analysis of the deposited data

How the results depend on the processing

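Of the alternatives run on the counts, shares, sizes, enrichment and strength, 66 moved a value by less than the spread between replicates or kept its call, 14 moved it by more, 5 lost a call and 1 reversed it. Restricting to 10 kb anchors had the widest effect: the difference in the share of loops of 90 kb or less was -3.36 percentage points against -9.66 with all widths (and -18.1 with a limit of 150 kb), the log2 ratio of the median size was 0.21 against 0.95, that of loops anchored at SOX9 was 0 against -0.74, and the difference in median enrichment reversed to 0.24 from -0.26. Leaving out 1 library at a time gave log2 ratios of 0.63 to 1.21 for the median size and -1.32 to -0.32 for loops anchored at SOX9. For domains the ratios were 0 to 1.00. The 45 kb LINC00511 loop was not called with any 1 library left out, although the fit without vehicle replicate 1 called other loops. Without THZ1 replicate 1 the SOX9 ratio was -1.32 and the size ratio 0.63, and without vehicle replicate 2 the domain ratio was 1.00. Counting only domains wholly within the window gave a domain ratio of 1.00 against 0.42, and DESeq2 called 0 locus loops (16 genome-wide, 360 at an unadjusted p below 0.05). For loops within LINC00511 the log2 ratio of -1.44 was -1.85 at a stricter FDR of 0.01, -2.00 with 10 kb anchors and -1.66 without THZ1 replicate 2. For loops spanning SOX9 the ratio of 1.74 was 3.0 at that FDR and 2.32 without vehicle replicate 2. The alternatives for these 2 groups were chosen after seeing the data.

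The replicate numbers did not pair the libraries (correlation of deviations 0.0173). With a replicate block 1 locus loop was called as before (edgeR adjusted p = 0.00162), and the log2 ratio was -0.33 for all locus loops, -0.82 for loops anchored at SOX9 and 0.92 for the median size. The number of loops limits these comparisons: a median or share at the locus rests on 24 to 43 loops, and only 2 had identical anchors in every list.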
